A study of Mus musculus with 5 samples.

Results

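PP cells, the endocrine cells of the pancreatic islet that secrete pancreatic polypeptide, numbered 589 among the 18221 annotated cells of 5 mouse islet libraries. They were taken as the cells with the deposited cell type PP, which are exactly the 589 cells of cluster 11. Their marker is Ppy, the gene of pancreatic polypeptide. Expression per gene was not analysed here, so the name rests on the deposited annotation and was not checked against Ppy.

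Control mice carried floxed Atf6a alleles (Atf6afl/fl), and knockout mice, labelled cKO, carried RIP-Cre;Atf6afl/fl, in which a rat insulin promoter drives Cre mainly in beta cells. ATF6α is a membrane-bound transcription factor of the endoplasmic reticulum that is released under protein-folding stress. Both genotypes received a diet with 10% of its energy from fat (normal diet, ND) or with 60% (high-fat diet, HFD) from 6 weeks of age, and islets were collected at 22 weeks, so every group carries the floxed alleles and the controls carry no Cre. Each library pooled hand-picked islets of 2 mice. The control ND, control HFD and cKO HFD groups were single libraries of batch 1, and the cKO ND group consisted of a batch 1 and a batch 2 library. No source used here gives sex or strain.

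Pancreatic polypeptide belongs to a peptide family with peptide YY and neuropeptide Y, is released after meals under vagal control, and restrains pancreatic secretion and food intake. In the mouse, PP cells lie mainly at the islet rim with the glucagon-secreting alpha cells and somatostatin-secreting delta cells, and they are most frequent in islets of the head of the pancreas. The 5540 alpha, delta and PP cells are called non-beta endocrine cells here.

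The libraries held between 40 and 7998 cells. The 40-cell library, cKO ND of batch 1, stood apart: it contained 31 beta cells and no alpha, delta or PP cell, so every ratio to these types rests on the other 4 libraries. Of the 140 cell barcodes found in more than 1 library, 6 belonged to PP cells, and 0 of them were PP in both libraries. The sequencing depth is unknown, so precision is given by cell numbers alone. Intervals are exact 95% binomial (Clopper-Pearson) for shares and ratios of counts, and by the delta method for log2 ratios. They reflect the counting of cells and leave out differences between mice, and no p-value was taken from cells.

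PP cells formed a small part of every library, and their share of all cells varied 6.19-fold between the 4 libraries that contained them. There were 324 PP cells among 7998 cells of the control ND library, or 4.05% (3.63 to 4.51%). The control HFD library had 147 among 6667, or 2.20% (1.87 to 2.59%). The cKO HFD library had the lowest share above 0, with 33 among 2483, or 1.33% (0.917 to 1.86%). The batch 2 cKO ND library had the highest, with 85 among 1033, or 8.23% (6.63 to 10.1%). The intervals of these 4 shares do not overlap at any step of the order. The batch 1 cKO ND library had 0 of 40 (0 to 8.81%), an interval that includes all 4 other shares. The mean of this group was 4.11% ± 5.82 (SD, n = 2), so its replicates spanned more than the other 3 groups together.

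Among non-beta endocrine cells the PP share was much more even. It was 10.1% (9.12 to 11.2%) in the control ND library, where 324 of 3194 such cells were PP. It was 10.9% (9.25 to 12.6%) in the control HFD library, with 147 of 1354. It was 12.1% (9.75 to 14.7%) in the batch 2 cKO ND library, with 85 of 705, and 11.5% (8.05 to 15.8%) in the cKO HFD library, with 33 of 287. The highest share was 1.19 times the lowest, all 4 intervals overlap, and no step in the order exceeds its counting error. Over the same libraries, the non-beta endocrine cells themselves ranged from 11.6% to 68.2% of all cells.

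**Figure D1:**
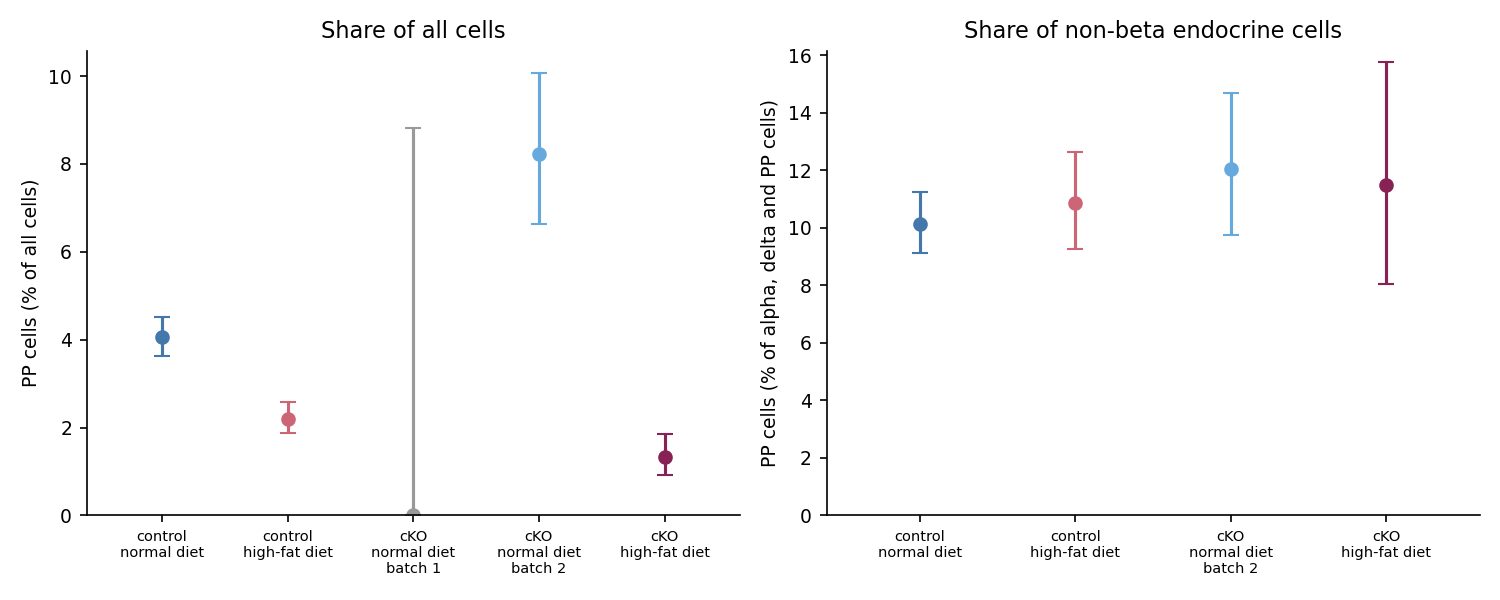
PP cells as a percentage of all cells in the 5 libraries (left) and of alpha, delta and PP cells in the 4 libraries that contain such cells (right). Points are single libraries and bars are exact 95% binomial intervals; the left values run from 0 to 8.23%, the right ones from 10.1 to 12.1%.

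By the deposited types, both cKO libraries had more PP cells per alpha cell than both control libraries. There were 16.8 PP cells per 100 alpha cells (14.9 to 18.9) in the control ND library and 19.0 (15.8 to 22.7) in the control HFD library. The batch 2 cKO ND library had 26.4 (20.5 to 33.6) and the cKO HFD library 26.2 (17.3 to 38.7). Both the 26.4 of the batch 2 library and the 26.2 of the cKO HFD library were outside the intervals of both controls. The interval of the batch 2 library overlapped that of the control HFD library. The interval of the cKO HFD library, with 33 PP and 126 alpha cells, overlapped those of both controls. The order did not hold when each cell took the type most common among its 30 nearest neighbours in the deposited map, called neighbour types here: the values were then 13.2 and 17.4 in the control ND and control HFD libraries, 19.7 in the batch 2 cKO ND library and 10.2 in the cKO HFD library.

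Relative to delta cells, by the deposited types, the order of the genotypes was the opposite. PP cells per 100 delta cells were 34.3 (30.1 to 38.9) in the control ND library and 33.9 (27.9 to 40.9) in the control HFD library. They were 28.5 (22.1 to 36.4) in the batch 2 cKO ND library and 25.8 (17.0 to 38.1) in the cKO HFD library. All 4 intervals overlap. The ratio of the 2 reference types moved with these values: delta cells per 100 alpha cells were 49.1 and 56.1 in the control libraries and 92.5 and 102 in the cKO libraries, normal diet first. By these types the cKO libraries had more delta cells per alpha cell. The direction of the genotype difference in PP cells then depends on the type used as reference. With the neighbour types the order did not hold. PP cells per 100 delta cells were then 25.2 in the control ND and 25.4 in the control HFD library. They were 20.4 in the batch 2 cKO ND and 26.7 in the cKO HFD library. The cKO HFD library then had 150 delta and 391 alpha cells, against 128 and 126 as deposited.

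**Figure D2:**
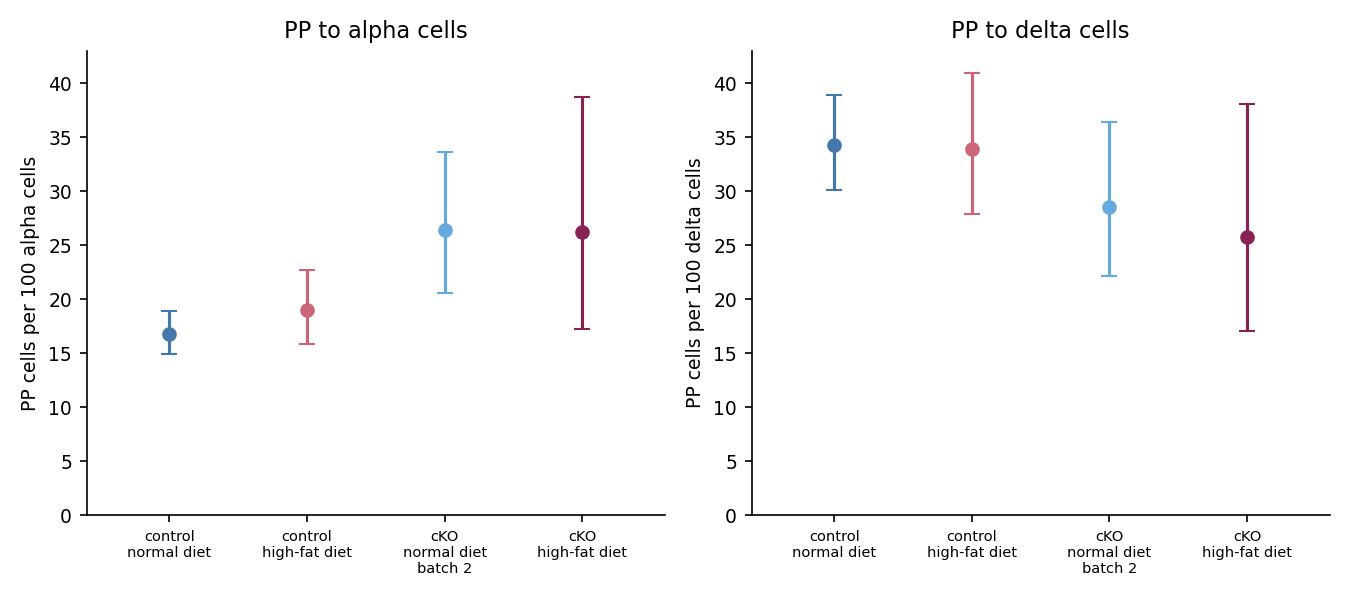
PP cells per 100 alpha cells (left) and per 100 delta cells (right) in the 4 libraries with such cells. Points are single libraries and bars are exact 95% intervals; the cKO points sit at 26.2 and 26.4 per 100 alpha cells, above the control points at 16.8 and 19.0, and below the control points for delta cells.

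Against beta cells, PP cells varied most. There were 7.35 PP cells per 100 beta cells (6.55 to 8.23) in the control ND library, 3.04 (2.56 to 3.58) in the control HFD library and 1.58 (1.08 to 2.22) in the cKO HFD library. The batch 2 cKO ND library had 36.0 (27.8 to 46.3), from 85 PP and 236 beta cells. The batch 1 library had 0 PP cells for 31 beta cells (0 to 12.6 per 100).

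High-fat feeding of control mice, compared within batch 1, addressed how PP cells differ with diet when ATF6α is present. The PP share of all cells on the high-fat diet was 0.544 times that on the normal diet, or -0.88 (-1.15 to -0.60) as a log2 ratio. An interval excluding 0 was found for 87.5% of the 8 cell types, so it does not set PP cells apart. Alpha and delta cells had similar log2 ratios, -1.05 (-1.16 to -0.94) and -0.86 (-1.02 to -0.70), and shares have a fixed sum. Among non-beta endocrine cells the log2 ratio of the PP share was 0.10 (-0.17 to 0.36). It was 0.18 (-0.13 to 0.48) for PP per alpha cell, or 0.40 (0.07 to 0.72) with the neighbour types, and -0.02 (-0.34 to 0.31) for PP per delta cell. For the PP share of non-beta endocrine cells the counting interval included no change. Counting error alone spans 0.890 to 1.29 times the normal-diet share. With a single library per diet, differences between mice are not in this interval, so it does not bound the change with diet.

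In cKO mice the diets could be compared only across batches, because the batch 1 normal-diet library had no PP cell, so diet and batch cannot be told apart. The PP share of all cells in the high-fat library had a log2 ratio of -1.63 (-2.20 to -1.06) to the mean of the 2 ND libraries, and 85.7% of the 7 cell types with enough cells had an interval excluding 0. The PP interval treats the 0 of 40 cells in batch 1 as exact and is therefore too narrow. With batch 1 set to 3 of 40 cells, an alternative chosen after seeing the data, the log2 ratio was -2.56 (-3.47 to -1.66). With only batch 2 as reference the value was -2.63 (-3.20 to -2.06), and with only batch 1 no ratio exists. The 1.33% of the high-fat library is also within the interval of the batch 1 library, which reaches 8.81%. Among non-beta endocrine cells the log2 ratio was -0.07 (-0.61 to 0.48), for PP per alpha cell -0.01 (-0.66 to 0.64), or -0.95 (-1.55 to -0.35) with the neighbour types, and for PP per delta cell -0.15 (-0.80 to 0.51).

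The genotypes on normal diet were also compared across batches. The mean PP share of the cKO libraries was 1.02 times the control share (log2 ratio 0.02, -0.31 to 0.35), a value that averages 0 of 40 cells with the 8.23% of batch 2 and treats the 0 as exact. With batch 2 alone the log2 ratio was 1.02 (0.69 to 1.35). The interval of the mean excluded 0 for 42.9% of the 7 cell types with enough cells, and PP was not among them. Among non-beta endocrine cells the log2 ratio for PP was 0.25 (-0.07 to 0.57). PP per alpha cell had a log2 ratio of 0.65 (0.26 to 1.03), the 1 genotype ratio of the PP to alpha or delta counts by the deposited types whose interval excluded 0. PP per delta cell had -0.27 (-0.66 to 0.13). Batch and genotype cannot be told apart in these 3 values.

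On the high-fat diet both genotypes were of batch 1. The PP share of all cells in the cKO library was 0.603 times that of the control (log2 ratio -0.73, -1.27 to -0.19), where 100% of the 7 types compared had an interval excluding 0. The PP interval included 0 without beta cluster 9, at -0.43 (-0.97 to 0.11), and with the neighbour types, at -0.34 (-0.84 to 0.16). Among non-beta endocrine cells the log2 ratio was 0.08 (-0.43 to 0.60), so counting error alone spans 0.742 to 1.51 times the control share, and it was -0.44 (-0.93 to 0.05) with the neighbour types. PP per alpha cell had a log2 ratio of 0.46 (-0.15 to 1.07) and PP per delta cell -0.39 (-1.01 to 0.22). Within batch 1, neither ratio was therefore distinguishable from no difference, although each has the sign of the normal-diet comparison. The sign of the PP to alpha value turned with the neighbour types, which gave 391 instead of 126 alpha cells in the cKO HFD library and a log2 ratio of -0.77 (-1.31 to -0.23). With those types the PP to delta log2 ratio was 0.07 (-0.50 to 0.64), also of the other sign.

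**Figure D3:**
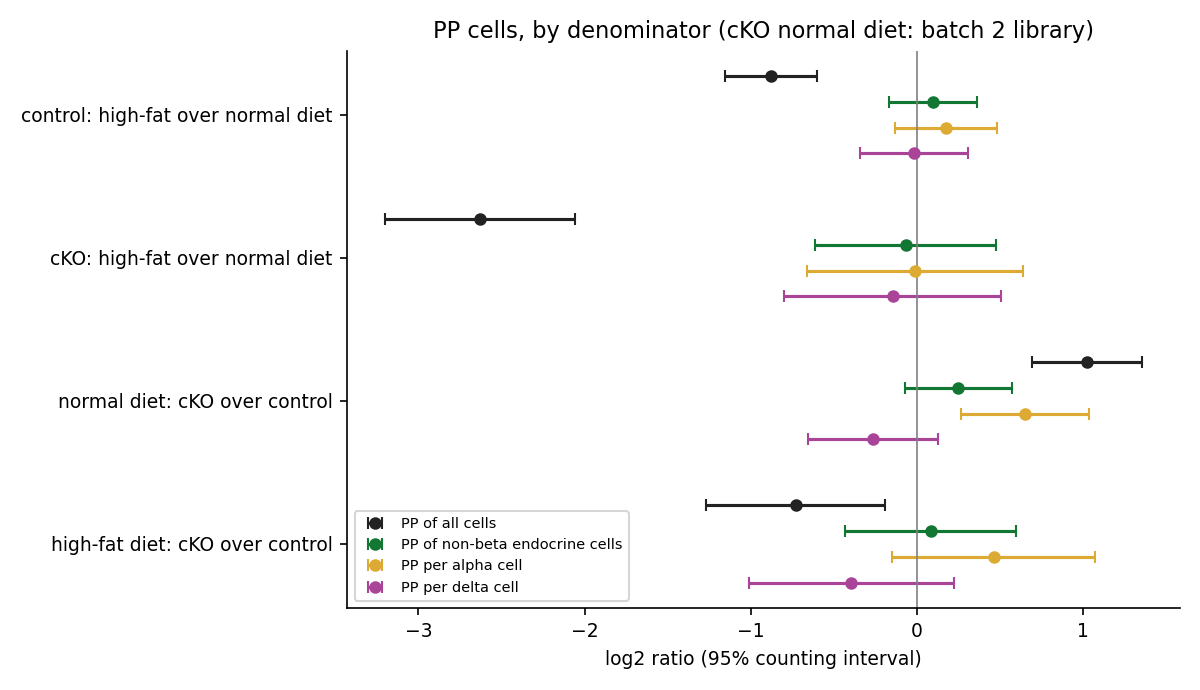
Log2 ratios of PP cells for 4 comparisons, with 4 denominators (all cells, non-beta endocrine cells, alpha cells, delta cells) and 95% counting intervals. The cKO ND value is the batch 2 library; the ratios of the share of all cells run from -2.63 to 1.02 and those of the other denominators from -0.39 to 0.65.

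The diet ratio of cKO mice divided by that of control mice was -0.75 on the log2 scale (-1.39 to -0.12) for the PP share of all cells and -1.75 (-2.39 to -1.12) with batch 2 alone. The interval around -0.75 also treats the 0 of 40 cells in batch 1 as exact. With batch 1 set to 3 of 40 cells the value was -1.69 (-2.64 to -0.74). With the mean of both cKO ND libraries, the interval included 0 with the neighbour types, at -0.49 (-1.12 to 0.14), and without beta cluster 9, at -0.51 (-1.14 to 0.13). For the share of non-beta endocrine cells it was -0.17 (-0.77 to 0.44), for PP per alpha cell -0.19 (-0.91 to 0.53), and for PP per delta cell -0.13 (-0.86 to 0.60). With the neighbour types the first 2 of these intervals excluded 0, at -0.63 (-1.25 to -0.02) for the share of non-beta endocrine cells and -1.34 (-2.03 to -0.66) for PP per alpha cell. When libraries were pooled by genotype or by diet, 8 two-sided exact permutation tests over libraries gave no p below 0.33. The smallest p possible was 0.33 with 4 libraries and 0.1 with 5. By the deposited types, both cKO libraries lay on 1 side of both controls for the PP share of non-beta endocrine cells (means 11.8% and 10.5%), for PP per 100 alpha cells (26.3 and 17.9) and for PP per 100 delta cells (27.2 and 34.1), each with exact permutation p = 0.33 and adjusted p = 0.89.

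In the deposited embedding, a UMAP map in 2 dimensions, PP cells lay between the beta, delta and alpha cells. Positions derive from the expression values that also gave the clusters, and distance in such a map is not distance in expression, so what follows is description. From the median PP position, the nearest cluster median was that of beta cluster 9 at 2.58 map units. Beta cluster 3 followed at 3.20, alpha cluster 2 at 3.31 and the delta cluster at 4.05, whereas the other alpha cluster, 8, lay at 5.41. PP cells had a median distance of 1.40 from their own median, the 7th widest of 14 clusters, against 1.68 and 2.55 for the alpha clusters and 1.69 for delta cells.

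PP cells were the least separate of the 8 types. Among the 30 nearest neighbours of a PP cell, 58.6% were PP on average, against 82.8% own-type neighbours for delta, 82.9% for alpha and 92.0% for beta cells. The other neighbours of PP cells were beta cells at 26.8%, delta cells at 9.35% and alpha cells at 4.75%. For 242 of the 589 PP cells, or 41.1%, PP cells made up no majority of the neighbours, against 9.76% of alpha and 10.7% of delta cells. Own-type neighbours were also more frequent in types with fewer cells than PP: 99.0% for the 179 endothelial cells, 86.3% for the 155 neurons and 81.7% for the 111 acinar cells. Per library, the fraction of PP cells without a PP majority was 44.4% (39.0 to 50.04%) and 36.7% (28.9 to 45.1%) in the control ND and high-fat libraries. It was 34.1% (24.2 to 45.2%) in the batch 2 cKO ND and 45.5% (28.1 to 63.6%) in the cKO HFD library, so the intervals overlap.

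Closeness to the other types differed between libraries. The nearest cell that was not PP was a beta cell for 417 of 589 PP cells (70.8%), a delta cell for 105 (17.8%) and an alpha cell for 65. Beta cluster 3 alone accounted for 300 of them. In the control ND library the nearest other cell belonged to cluster 3 for 60.8% of PP cells, and in the batch 2 cKO ND library for 55.3%. It did so for 34.7% in the control HFD library and for 15.2% in the cKO HFD library, below both normal-diet values. A delta cell was nearest for 15 of the 33 PP cells of the cKO HFD library, 45.5% (28.1 to 63.6%), against 15.7%, 15.6% and 18.8% in the control ND, control HFD and batch 2 cKO ND libraries. An alpha cell was nearest for 21.1% (14.8 to 28.6%) of PP cells in the control HFD library and for 6.48% (4.06 to 9.74%) in the control ND library. The order of the diets was the opposite in the cKO libraries, with 12.9% (6.64 to 22.0%) in the batch 2 cKO ND and 6.06% (0.743 to 20.2%) in the cKO HFD library, and these intervals overlap. Among the 30 nearest neighbours, alpha cells were at 4.66% in the control ND and 4.76% in the control HFD library.

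PP cells of the libraries were spread unequally along the second axis of the map. They formed a range with no empty bin of 0.5 between its ends, and the 71 PP cells between -1 and -0.5, of which 63 were of the control ND library, were followed by 44, 43, 59 and 108 in the next 4 bins. A split at 0 on the second axis, chosen after the positions had been seen, placed 144 PP cells below and 445 above it. Below it lay 131 of 324 PP cells of the control ND library, 40.4% (35.0 to 46.0%), and 11 of 85 of the batch 2 cKO ND library, 12.9% (6.64 to 22.0%). The control HFD library had 2 of 147, 1.36% (0.165 to 4.83%), and the cKO HFD library 0 of 33 (0 to 10.6%). Both normal-diet libraries with PP cells thus had a larger part of them below the split than either high-fat library, and the interval of the batch 2 cKO library overlaps that of the cKO HFD library. With the split at -0.5 the fractions were 28.4%, 7.06%, 1.36% and 0%, and at 0.5 they were 50%, 22.4%, 4.08% and 0%, in the same order of libraries. The split has no test, since it was drawn from these positions.

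**Figure D4:**
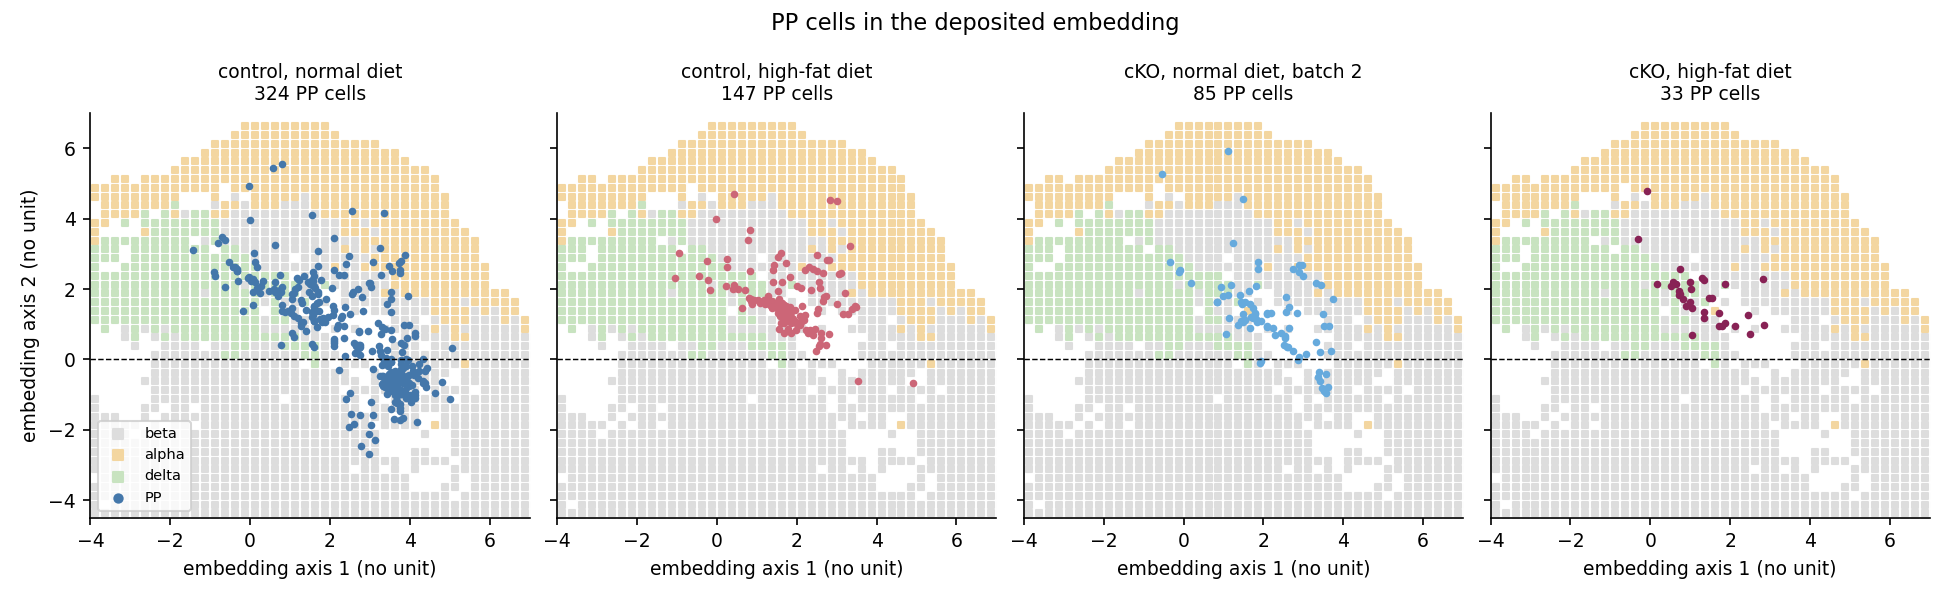
Positions of PP cells (dots) in the deposited embedding for the 4 libraries with PP cells, over squares coloured by the most common other type where that is beta, alpha or delta. The dashed line is the split at 0 on the second axis; 131 dots lie below it in the control ND library, 2 in the control HFD, 11 in the batch 2 cKO ND and 0 in the cKO HFD library.

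**Figure D5:**
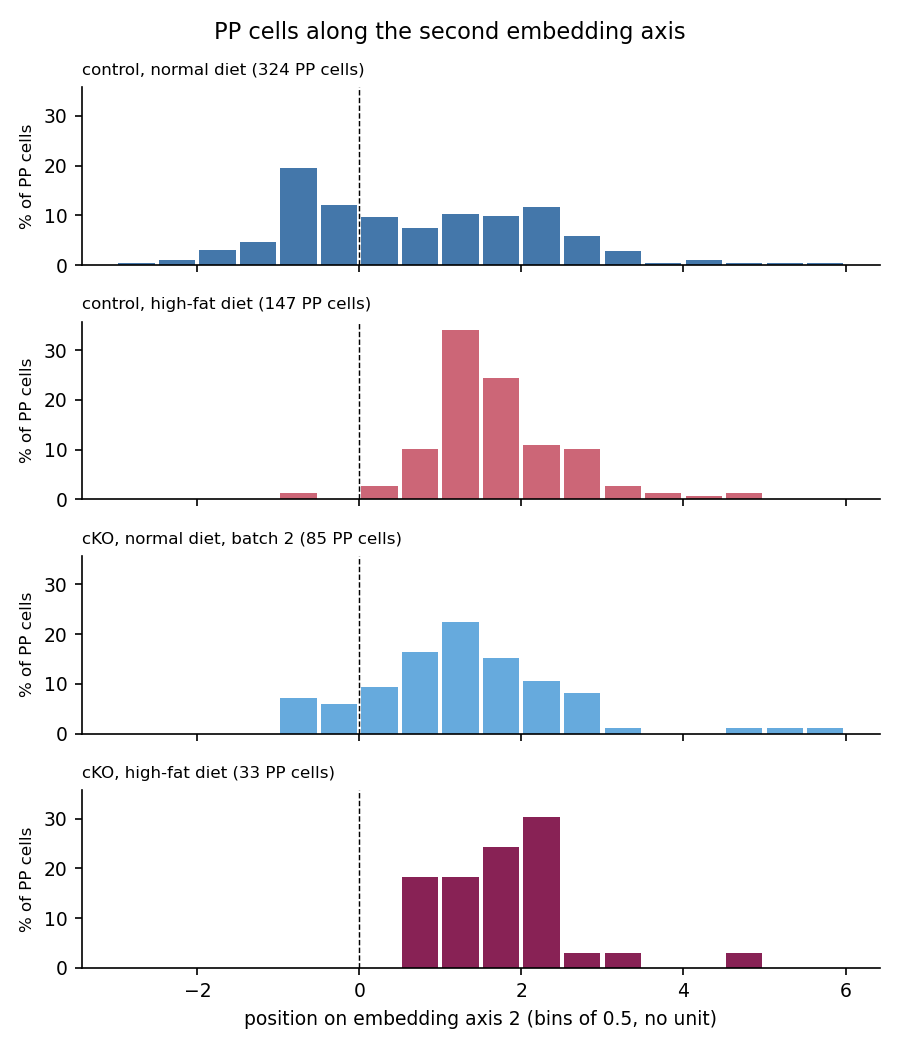
Percentage of each library's PP cells per bin of 0.5 along the second embedding axis, with the split at 0 dashed. The control ND library has its highest bar between -1 and -0.5, with 63 of 324 cells, and the control HFD library between 1 and 1.5, with 50 of 147.

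PP cells below the split lay among beta cells. Of the 30 nearest cells other than PP around each of them, 95.5% were beta cells, and 85.8% belonged to beta cluster 3. Around PP cells above the split, 65.2% were beta, 26.3% delta and 8.11% alpha cells, with 31.9% in cluster 3 and 21.3% in cluster 9. The cells surrounding those below the split were 44.9% from the control HFD, 23.4% from the cKO HFD and 30.1% from the control ND library. Most beta cells of the series also came from HFD libraries. Of all 11607, 4841 were from the control HFD, 2093 from the cKO HFD and 4406 from the control ND library. The PP cells below the split came from the control ND library in 131 of 144 cases, and that library held 324 of all 589 PP cells. Immune and acinar cells were 0.949% and 1.64% of these surrounding cells.

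PP cells above the split were 2.41% of all cells in the control ND library and 2.17% in the control HFD library. These shares keep the PP cells below the split in the total. With those cells left out of the total too, the log2 ratio was -0.17 (-0.48 to 0.13) in place of -0.88. Among non-beta endocrine cells the shares then became 6.30% and 10.7%, a log2 ratio of 0.77 (0.47 to 1.06). Between the genotypes on normal diet, leaving them out changed the log2 ratio of PP per alpha cell from 0.65 to 1.20 and that of PP per delta cell from -0.27 to 0.28. The split was drawn where PP cells of the control ND library lie, so leaving those cells out lowers that library by construction, and these values support no difference between libraries.

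Mixing of the libraries among PP cells was described by the 30 nearest PP cells of each. Neighbours of a cell's own library were more frequent than the library sizes give, by a factor of 1.16 (1.06 to 1.26) in the control ND library and 1.62 (1.29 to 1.95) in the control HFD library. The factor was 1.11 (0.588 to 1.73) in the batch 2 cKO ND library and 2.21 (0.625 to 5.18) in the cKO HFD library, and both intervals include even mixing at 1. All these intervals take each PP cell as 1 observation and treat a rounded mean as a binomial count. Nearby cells share neighbours, so the intervals are rough and test nothing. Neighbours from the control ND library were fewer than library sizes give for PP cells of each other library. The factor was 0.637 for the control HFD, 0.702 for the cKO HFD and 0.842 for the batch 2 cKO ND library. PP cells of the cKO HFD library had control HFD neighbours at 1.37 times the frequency that library sizes give. Those of the batch 2 cKO ND library had them at 1.29 times, so this was not particular to the high-fat diet.

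Mixing was also described for each pair of libraries by a measure that does not depend on cell numbers. It is the share of triples in which a PP cell lies nearer to a PP cell of its own library than to one of the other library, which is 0.5 for even mixing. It was 0.604 between the control libraries, 0.638 between control ND and cKO HFD, and 0.542 between control ND and batch 2 cKO ND. Between the control HFD library and the batch 2 cKO ND library it was 0.522, between both HFD libraries 0.539, and between the cKO libraries 0.574. For the pair of control libraries it was 0.543 in alpha, 0.531 in delta and 0.512 in beta cells, all lower than in the PP cells as a whole. For only the PP cells above the split at 0 this pair had 0.518, below alpha and delta cells and above beta cells. That split was drawn from these positions. PP cells were not the highest type in every pair: beta cells had 0.571 between control ND and batch 2 cKO ND, 0.548 between control HFD and batch 2 cKO ND, and 0.565 between both HFD libraries, each above PP cells. These differences have no test.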

How the data were processed

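Single-cell RNA libraries of mouse islets were made with 10x Genomics 5′ chemistry, per the labels' protocols. Cell Ranger 7.1.0 and GRCm39 are named in the submitters' processing notes. The deposited tables give a library, cell type and cluster per cell, and the authors' embedding positions are scores without unit. For cell filters, doublet treatment, integration and clustering settings the sources used here give nothing, and doublets were not called here.

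The tables were joined by cell identifier, with 0 cells missing from any. Library names were matched to sample titles. Shares, ratios and log2 ratios were computed in Python 3.11.15 with scipy 1.17.1. The intervals of log2 ratios were tested on simulated data only for diet in control mice, where each group is a single library. Intervals that use the mean of the cKO normal-diet libraries were not tested in this way. The cKO normal-diet value averages, with equal weight, those of its libraries that have the denominator. A comparison needed at least 20 cells of a type. Exact permutation tests ran over libraries with Benjamini-Hochberg adjustment over 8 tests. Neighbours were the 30 nearest cells in the embedding. No gene is named with a value, and the rule for types and clusters was to name PP, alpha, delta and beta, with the 3 clusters nearest to PP; other types and clusters were named after their values were seen. The cells and the comparisons were chosen with earlier results of these data known. Alternatives are in the closing section.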

Additional observations from a re-analysis of the deposited data

Results flagged for a closer look

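The diet ratios of control and cKO mice had opposite signs for PP cells among non-beta endocrine cells (log2 ratio 0.10 in control and -0.07 in cKO mice, differing by -0.17). They also did for PP cells per alpha cell (0.18 and -0.01, differing by -0.19). The differences between genotypes were not tested, since the libraries are too few, and both counting intervals include 0 (-0.77 to 0.44 and -0.91 to 0.53). With each cell given the type most common among its 30 nearest neighbours, both intervals exclude 0, at -0.63 (-1.25 to -0.02) and -1.34 (-2.03 to -0.66).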

How the results depend on the processing

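Of 184 alternative values for 40 results, 148 stayed within the counting interval of the reported value or kept the sign of a pooled difference, 30 moved outside it and 6 reversed. Some of the 148 could not differ, because the batch 1 cKO normal-diet library has no alpha, delta or PP cell. Leaving it out, or summing both libraries, repeats the reported value for the non-beta share, PP per alpha and PP per delta cell. Such values say nothing about robustness. All 6 reversals were of pooled differences. A log2 ratio counted as reversed only where its reported interval excluded 0. Other changes of sign are therefore among the 148 and the 30, such as 0.46 to -0.77 for PP per alpha cell, genotype on high-fat diet. All 12 values of the percentages of alpha, beta, delta and PP cells among the neighbours of PP cells were among the 148. So were all 16 of the same-library neighbours and every value without cells of shared barcodes.

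For the PP share of all cells, leaving out the batch 1 cKO normal-diet library gave -2.63 for diet in cKO, 1.02 for genotype on normal diet and -1.75 for the ratio of diet ratios. Summing both libraries gave -2.58, 0.97 and -1.70, and setting batch 1 to 3 of 40 cells, an alternative chosen after seeing the data, gave -2.56, 0.96 and -1.69. Without the batch 2 library no log2 ratio exists, and the pooled genotype difference in percentage points, 0.058, was 1.65 without batch 1 and -2.46 without batch 2. Giving each cell the most common type among its 30 neighbours, which need not be a majority, left 481 PP cells, 364 of them PP as deposited, with -0.54 for diet in control and -1.03 in cKO.

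That reassignment also counted 391 alpha cells in the cKO high-fat library, against 126 as deposited. PP per alpha cell then gave -0.95 for diet in cKO, -0.77 for genotype on high-fat diet and -1.34 for the ratio of diet ratios, and the PP share of non-beta endocrine cells gave -0.44 for genotype on high-fat diet. The pooled differences reversed to -0.67 (genotype) and -0.43 (diet) for that share, -0.35 and -2.65 for PP per 100 alpha cells, and 3.22 (diet) per 100 delta cells. With all cells that are not beta as denominator, where batch 1 enters with 0 of 9, that share gave 0.67 for diet in cKO, -0.76 for genotype on normal diet and 0.83 for the ratio of diet ratios.

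Leaving out PP cells below the split, also chosen after seeing the data, gave for diet in control -0.17 (share of all cells), 0.77 (non-beta), 0.90 (per alpha) and 0.71 (per delta), and for genotype on normal diet 0.56, 0.76, 1.20 and 0.28. The median distance to the PP median, 2.06, 0.798 and 1.23 in the control normal-diet, control high-fat and batch 2 cKO libraries, became 1.62, 0.653 and 0.781 for PP cells with a PP majority, and the mean distance in the control high-fat library was 1.16. No paired analysis was possible, because all groups but cKO normal diet had a single library and no source used here pairs libraries.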

Other observations

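Some cells of other types sat among PP cells. A PP majority among the 30 nearest neighbours was found for 93 of 17632 cells that are not PP, or 0.527%. With only 589 PP cells this percentage is low in any case and does not measure how pure their area was. Of the 481 cells with PP as the most common type among their neighbours, 364 were PP as deposited. Among the 93 cells, 54 were of beta cluster 3, 15 were delta cells, 12 were of beta cluster 1 and 10 of beta cluster 9, whereas the alpha clusters had 1 each. Beta clusters 5, 6 and 7 had 0, as did the immune, endothelial, neuron and acinar cells.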
